A study of Mus musculus with 6 samples.

Results

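The genes described here are the Rab GTPases of mouse, taken as every array probe whose gene symbol was Rab followed by a number, with Rab27a and the names of GTPase-activating, exchange and interacting proteins left out. This rule took 52 gene symbols read by 85 of the 46643 probes on the array. Of these, 37 genes, read by 55 probes, were detected (detection p under 0.01) on both arrays in 1 or more tissues, and only these 37 were tested. Rab3il1, which the rule also took, names an exchange factor and not a GTPase, and its probes were not detected. The measured cells were NKp46+ lymphocytes sorted as CD45+, CD3- and "NK11+" (spelled as in the labels), taken from the spleen, from the lamina propria of the intestine and from the skin of 12-week-old male RAG-2-KO mice on the C57BL/6 background. Each tissue was measured on 2 Illumina BeadChip arrays, called I and II, which gave 6 arrays in all. All 3 groups carry the Rag2 deletion, so every sample came from an animal without T and B cells and no sample from a mouse with an intact Rag2 gene was analysed here. The labels do not say whether arrays I and II came from separate mice or whether animals were pooled, so the p-values below measure only the spread between these arrays, which may be technical. The title of the series names the transcription factor ROR gamma-t in NKp46+ cells, and the tissue comparisons below describe how the vesicle-traffic genes of these cells differed by site.

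Rab proteins are small GTPases that mark the membranes of the cell and direct vesicles between them. An exchange factor loads a Rab with GTP, the active form binds effectors such as tethers, motors and adaptors, and a GTPase-activating protein then switches it off. Rabs carry a lipid tail that a prenyl transferase attaches, and a dissociation inhibitor takes the inactive Rab off the membrane. Each member has its own place, from the endoplasmic reticulum and Golgi through early, recycling and late endosomes to secretory granules, and natural killer cells use this machinery to move and release lytic granules and to return receptors to the surface.

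The number of detected probes lay between 15196 and 18530 per array, and 33 to 36 of the 37 Rab genes were detected on each array. Spleen arrays were brighter before the deposited scaling, with mean signals of 137.1 and 131.0, against 82.7 and 50.9 for intestine and 43.7 and 53.4 for skin, and the part of this difference in the results was not tested. Of the genes that define the sort, Ncr1, which encodes NKp46, read 88.2 and 52.9 in the spleen, 10.8 and 14.7 in the intestine and 33.1 and 32.4 in the skin. Klrb1c, which encodes NK1.1, read 2311 and 2071 in the spleen, 978 and 1073 in the intestine and 2125 and 2003 in the skin. Ptprc, which encodes CD45, read 324 and 365.3 in the spleen, 164.4 and 145 in the intestine and 136.5 and 178.6 in the skin. Of the CD3 chains, Cd3e was detected on none of the 6 arrays, while Cd3d and Cd3g were detected on all 6. Cd3d read 107.5 to 203 over the arrays, and Cd3g read 109 and 81.4 in the spleen, 312 and 596.8 in the intestine and 54.6 and 59.4 in the skin. Of 8 T cell markers in all, 4, 5 and 4 were detected on both arrays of spleen, intestine and skin, with summed signals of 3342 to 3380, 2743 to 3078 and 3556 to 3659. Of 15 markers of macrophages, monocytes and dendritic cells, 9 were detected on both spleen arrays and 3 each on both intestine and both skin arrays. Their summed signal was 795 to 829 in spleen, 644 to 656 in intestine and 640 to 665 in skin. Itgax, Fcgr3 and Cd68, detected on all 6 arrays, were the brightest of the list on each. C1qa, C1qb, C1qc, Adgre1, Mrc1 and Lyz2 were detected on both spleen arrays and on no intestine or skin array. Lyz2 read 26.5 and 54.4 in the spleen, and Csf1r was detected on no array. Of 9 erythroid and platelet markers, 5 were detected on both spleen arrays and 4 each in intestine and skin, with summed signals of 12230 and 18060 in the spleen, 3009 and 2364 in the intestine and 1257 and 1019 in the skin. Epcam, Tyr and Cdh5, which define gut epithelium, melanocytes and endothelium, were not detected on any array, but other genes of their lists were. Cdh1 read 61.1 and 84.5 in intestine and was not detected in spleen or skin, and Pecam1 read 222 and 218.9 in the spleen, 550.4 and 727.7 in the intestine and 178.3 and 216.3 in the skin. Lgals4, Mitf and Kdr were detected on all 6 arrays. The part of these marker levels in the results was not tested. In bulk samples such as these, fewer cells of a type and less RNA per cell cannot be told apart.

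Of the 37 genes 30 were detected on all 6 arrays by their kept probe with the highest mean. Signals are arbitrary brightness units of the scanner after background subtraction, and they cannot be ranked between genes because each probe binds with its own strength. The 15 symbols that were not kept were Rab2b, Rab3a, Rab3b, Rab3c, Rab3il1, Rab5a, Rab9b, Rab13, Rab15, Rab25, Rab26, Rab27b, Rab34, Rab36 and Rab40b, and each of them was detected on at most 1 array. No signal of any of them was above 10.9 on any array. Among them were Rab27b, a Rab of secretory granules, and the early endosomal Rab5a.

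**Figure D1:**
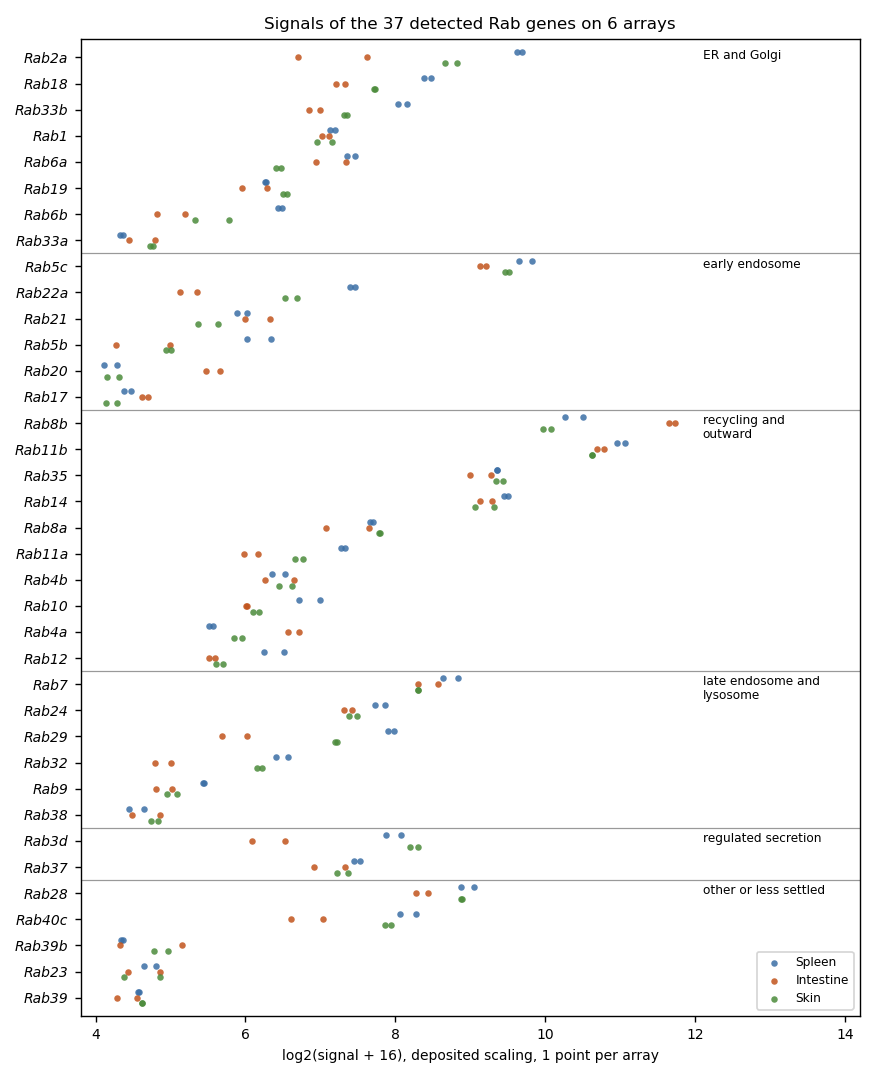
Signals of the 37 detected Rab genes on the 6 arrays, as log2(signal + 16) with the deposited scaling (x axis), 1 point per array, coloured by tissue and grouped by the membrane on which each Rab works. Within a group genes are ordered by mean signal. Rab2a, Rab22a, Rab29, Rab32 and Rab3d have both intestine points left of the other tissues, and Rab8b, Rab4a and Rab20 have them to the right.

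Intestine and spleen were compared first. Differences are on the scale log2(signal + 16) after quantile normalization, on which changes of dim genes appear too small, and a gene was called when its limma p, adjusted by Benjamini-Hochberg over all 13455 genes tested, was under 0.05. In intestine 14 Rab genes were lower and 5 were higher than in spleen, with the other 18 not called. Over all genes tested, 28.3% were lower and 21% were higher, or 49.3% in either direction. The median difference was -0.08 for the Rab genes and -0.04 for all genes. The 5 higher genes were Rab8b, Rab4a, Rab20, Rab21 and Rab4b, of which Rab20 passed the filter only through intestine, so its calls are given no weight. Of the 19 called genes 10 differed by at least 2-fold, against 1888 of the 6630 called over all genes tested. Rab20 is counted among these 10 and among the calls that held in every setting. Scaling arrays to a common median gave 8 higher and 13 lower Rab genes, and the deposited scaling alone gave 3 higher and 17 lower. No called Rab gene changed sign in any of the 15 alternative settings, and 13 of the 19 calls held in every setting in which the gene could be tested.

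The second comparison set skin against spleen. In skin 10 Rab genes were lower and 3 higher than in spleen, against 11.4% lower and 13.1% higher over all genes tested, or 24.5% in either direction. The median difference was -0.13 for the Rab genes and 0.00 for all genes. Only Rab5b, an early endosomal Rab, differed by 2-fold or more among the 13 called. Over all genes tested 350 of the 3300 called did. These skin calls rested on every spleen and skin array. Without spleen array I, spleen array II or skin array I, limma called 0 Rab genes, while 10, 11 and 14 had an unadjusted p under 0.05, and without skin array II it called 1. With an offset of 4 in place of 16 it called 2, without the filter on dim probes it called 3, and none of the 13 calls held in all 15 settings. With the deposited scaling alone all 15 called Rab genes were lower, and with median scaling 10 were lower and 6 higher.

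Intestine and skin differed in 14 Rab genes, of which 6 were higher and 8 lower in intestine. Over all genes tested, 16.4% were higher and 22.9% lower, or 39.3% in either direction. The median difference was -0.02 for the Rab genes and -0.08 for all genes. Of the 14 called genes 7 differed by at least 2-fold, against 1533 of the 5282 called over all genes tested. In all settings that could test them 10 of the 14 calls held. Rab20 is among the 6 higher, the 7 that differed by at least 2-fold and the 10 calls that held. It passed the filter only through intestine, so its calls are given no weight. The 3 comparisons share arrays in pairs and are not independent of each other. Slides were shared as well, since 1 slide carried the arrays I of all 3 tissues and the other the arrays II. Within the slides, intestine minus spleen was 1.23 and 1.47 for Rab8b and -2.69 and -1.71 for Rab2a.

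**Figure D2:**
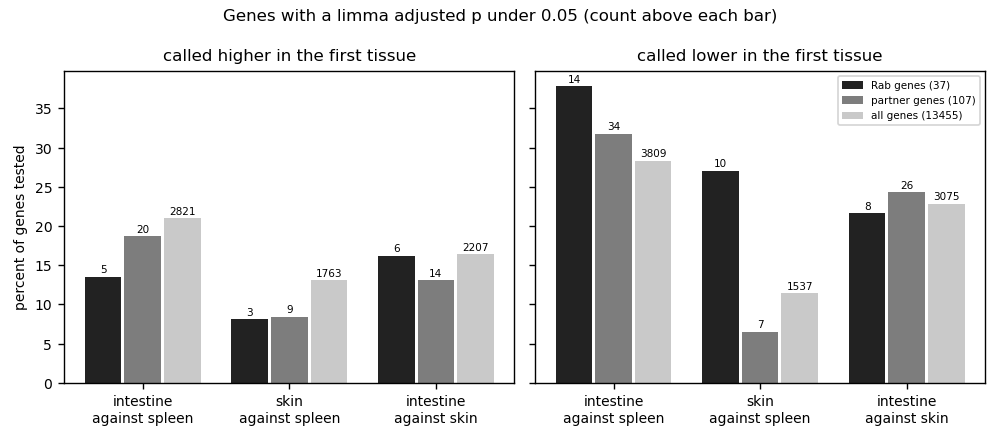
Percent of genes tested that limma called higher (left) or lower (right) in the first-named tissue, for the 37 Rab genes, their 107 tested partner genes and all 13455 genes, with the count above each bar. In intestine against spleen 14 Rab genes were lower and 5 higher, and in skin against spleen 10 were lower and 3 higher.

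**Figure D3:**
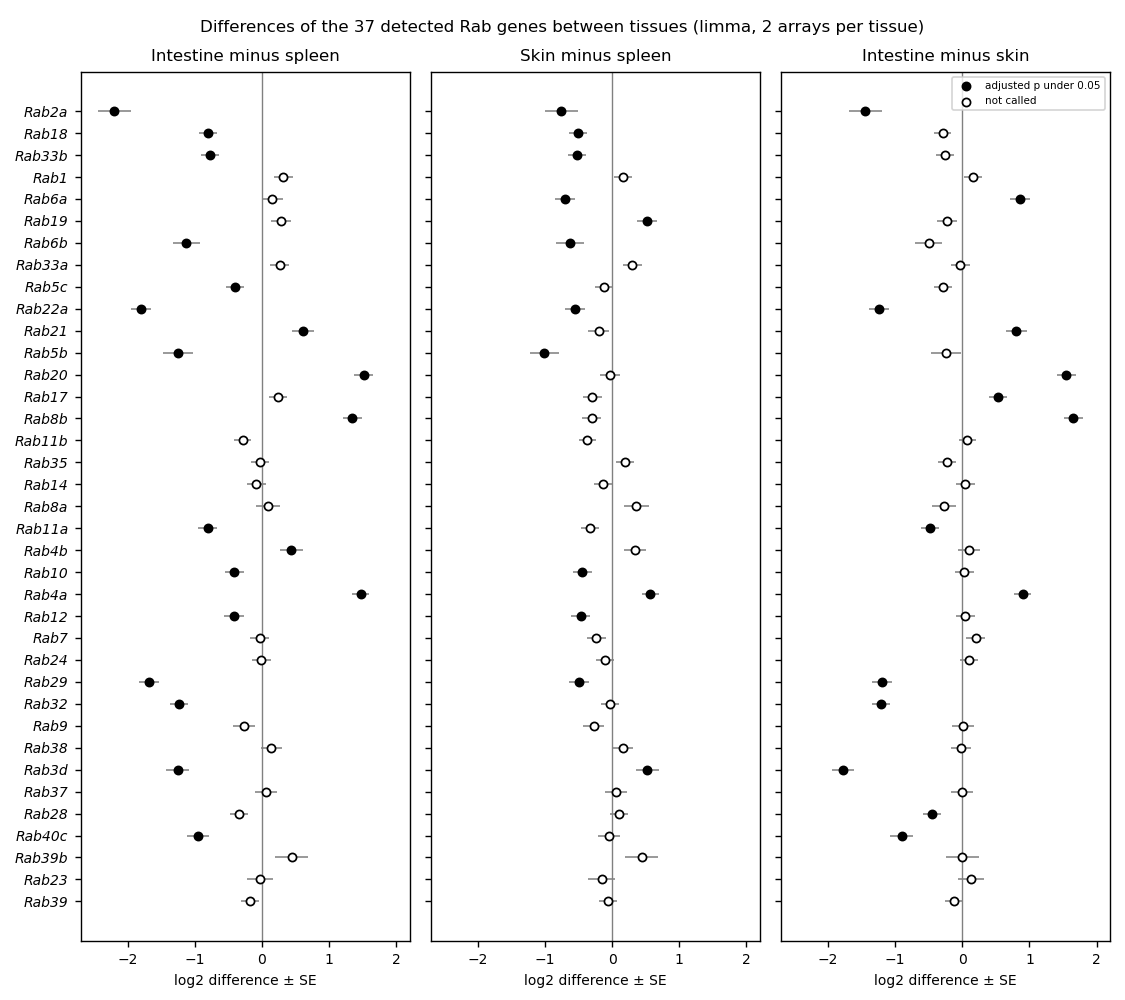
Differences of the 37 detected Rab genes in the 3 comparisons, as log2 differences with standard errors from limma (x axis), with filled points for an adjusted p under 0.05 and genes in the order of the plot of signals. The widest differences lie in the 2 comparisons with intestine, from -2.20 for Rab2a to 1.65 for Rab8b.

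Promoters of 4 of the genes that differed most in intestine, the higher Rab8b and Rab20 and the lower Rab22a and Rab29, are shown so that their sequence can be read beside the values that follow. RefSeq (GRCm38.p6) gave promoters for 31 of the 37 genes, 33 in all. No entry matched Rab1, Rab18, Rab2a, Rab37, Rab38 or Rab4a. Each line gives the 250 bases before the annotated start, on the strand of the gene, with capitals for matches on either strand to the motifs named below.

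Rab8b: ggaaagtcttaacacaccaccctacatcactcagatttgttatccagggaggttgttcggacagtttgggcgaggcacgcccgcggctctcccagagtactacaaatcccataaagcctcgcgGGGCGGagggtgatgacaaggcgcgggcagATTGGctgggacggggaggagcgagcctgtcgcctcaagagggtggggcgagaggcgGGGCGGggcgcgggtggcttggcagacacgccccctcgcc
Rab20: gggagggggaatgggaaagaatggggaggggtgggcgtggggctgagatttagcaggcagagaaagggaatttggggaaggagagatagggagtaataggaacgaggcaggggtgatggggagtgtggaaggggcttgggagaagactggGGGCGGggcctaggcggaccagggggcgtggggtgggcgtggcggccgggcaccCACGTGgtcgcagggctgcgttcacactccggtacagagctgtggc
Rab22a: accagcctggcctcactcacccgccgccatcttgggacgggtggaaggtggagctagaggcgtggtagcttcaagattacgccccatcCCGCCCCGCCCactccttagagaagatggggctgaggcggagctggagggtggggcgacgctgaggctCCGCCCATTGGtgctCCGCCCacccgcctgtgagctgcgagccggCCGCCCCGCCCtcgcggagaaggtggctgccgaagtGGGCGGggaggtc
Rab29: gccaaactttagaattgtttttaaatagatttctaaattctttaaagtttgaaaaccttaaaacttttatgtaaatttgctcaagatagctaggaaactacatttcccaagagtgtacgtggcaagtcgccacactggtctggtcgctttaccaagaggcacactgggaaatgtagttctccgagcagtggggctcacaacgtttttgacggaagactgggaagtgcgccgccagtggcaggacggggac

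The Rab8b sequence lies at chr9:66919706-66919955 on the minus strand, Rab20 at chr8:11478641-11478890 on the minus strand, Rab22a at chr2:173659595-173659844 on the plus strand and Rab29 at chr1:131867027-131867276 on the plus strand. Matches of different motifs may overlap. Positions count back from the last base printed, which is -1, to the first base of the match. The GC box, GGGCGG, matched at -127 and -40 in Rab8b, at -100 in Rab20 and 7 times in Rab22a. It was found in 21 of the 33 Rab promoters and in 32.7% of all 32851 promoters. The CCAAT box, CCAAT, matched at -97 in Rab8b and at -88 in Rab22a, and was found in 14 Rab promoters and in 33.8% of all. The E-box CACGTG matched at -46 in Rab20 and was found in 3 Rab promoters, those of Rab20, Rab21 and Rab23, and in 6.02% of all. TATAAA was found in 2 Rab promoters and 12.4% of all, while the cyclic AMP element TGACGTCA (1.55% of all) and the AP-1 motif TGANTCA (6.75% of all) had no match among the 33. The Rab29 window held no match. Its GC content was 44%, against 64.4% for Rab8b, 65.2% for Rab20 and 70% for Rab22a, with a median of 63.2% over the Rab promoters and 52.4% over all. A match describes letters in this window and is not a site, and no match says only that these letters are not in it.

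Among the Rabs of recycling endosomes and outward transport, 10 of 13 were tested. In intestine against spleen 3 were higher and 3 lower, in skin against spleen 1 was higher and 2 lower, and in intestine against skin 2 were higher and 1 lower. In that order 60%, 30% and 30% of the 10 were called, against 49.3%, 24.5% and 39.3% of all genes tested. Rab8b, which carries cargo from the Golgi and recycling endosomes to the plasma membrane, read 1439 and 1213 in the spleen, 3384 and 3214 in the intestine and 1061 and 985 in the skin. Both intestine arrays lay far above the other 4. Its log2 difference was 1.35 ± 0.14 (SE, 2 arrays per tissue) from spleen and 1.65 ± 0.14 from skin, or 2.54-fold and 3.14-fold (limma adjusted p = 4.38e-05 and 1.49e-05). Both of its other detected probes showed the same direction from spleen, at 1.23 and 1.42. Skin and spleen differed by -0.30 ± 0.14, which was not called (adjusted p = 0.131).

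Rab4a, which returns receptors quickly from early endosomes to the surface, read 29.8 and 31.4 in the spleen, 88.8 and 78.7 in the intestine and 41.4 and 46.2 in the skin. The 3 tissues did not overlap, with intestine highest and spleen lowest. For Rab4a intestine exceeded spleen 2.77-fold (1.47 ± 0.13, limma adjusted p = 1.77e-05). It was also higher there than in skin (0.90 ± 0.13, adjusted p = 0.000489) and in skin than in spleen (0.57 ± 0.13, adjusted p = 0.0155), where the last call was lost under the deposited scaling alone (0.36, adjusted p = 0.0626) and without any 1 of the 4 arrays. The call for its paralog Rab4b in intestine against spleen (0.44 ± 0.16, adjusted p = 0.0488) held in 5 of 15 settings, and its deposited signals of 60.7 and 84.6 in intestine overlapped the 76.6 and 66.1 of spleen.

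Rab11a, which governs slow recycling through the endosome near the centrosome, was lower in intestine than in spleen (-0.81 ± 0.14, limma adjusted p = 0.000945) and than in skin (-0.48 ± 0.14, adjusted p = 0.019). Its other detected probe gave -0.87 for intestine against spleen. Its paralog Rab11b, with 1980 and 2119 in the spleen, 1750 and 1644 in the intestine and 1563 and 1569 in the skin, was called in no comparison. Rab10 and Rab12, both counted in this group, were lower than in spleen in intestine (-0.41 ± 0.14 and -0.42 ± 0.14) and in skin (-0.44 ± 0.14 and -0.47 ± 0.14), with adjusted p-values between 0.0356 and 0.0474. These small differences were called in 8 to 10 of 15 settings, and the other detected probe of Rab10 gave 0.14 for intestine against spleen. The remaining members of the group were not called. Rab35, of endocytic recycling, read 636.8 and 641.3 in the spleen, 604.6 and 495.6 in the intestine and 636.0 and 676.7 in the skin. Rab14, which acts between the Golgi and endosomes, read 707 and 685 in spleen, 621 and 520 in skin and 612 and 544 in intestine, with overlapping intestine and skin signals. Rab8a, the paralog of Rab8b, gave 0.09 ± 0.18 for intestine against spleen.

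Of the 7 early endosomal Rabs 6 were tested. In intestine against spleen 2 were higher and 3 lower, in skin against spleen 2 were lower, and in intestine against skin 3 were higher and 1 lower. In that order 83.3%, 33.3% and 66.7% of the 6 were called, against 49.3%, 24.5% and 39.3% of all genes tested. Rab20 is counted among the higher genes in both comparisons with intestine. Rab20, which has been placed on early endosomes and phagosomes, read 34.4 and 28.2 in intestine and was detected there on both arrays. It passed the filter on dim probes only through intestine. In spleen it read 3.47 and 1.26 and in skin 3.96 and 1.71, and it was not detected on any of these 4 arrays. The probe therefore gives a lower bound, computed against the dimmest detected signal of each such array. By this bound Rab20 was at least 2.55-fold higher in intestine than in spleen and at least 2.26-fold higher than in skin. Because it entered the test only through the tissue where it was high, its calls are given no weight. Rab21, which accompanies integrins through early endosomes, was higher in intestine than in skin (0.81 ± 0.16, limma adjusted p = 0.00278) and than in spleen (0.61 ± 0.16, adjusted p = 0.0104). Its deposited signals in intestine, 63.97 and 47.47, overlapped those in spleen, 49.2 and 43.3, and its other detected probe gave -0.04 from spleen and 0.29 from skin. Under the deposited scaling alone the spleen difference was 0.20 and not called. Rab17, known from polarized epithelium, was read near the detection limit and was higher in intestine than in skin (0.53 ± 0.14, adjusted p = 0.0122, at least 1.10-fold). It was detected on 1 of the 2 intestine arrays and on no skin array, and the call was lost with an offset of 64 and without skin array II.

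Rab22a, which sorts cargo in early endosomes toward recycling, fell from spleen to skin to intestine. It read 151.8 and 159.6 in spleen, 87.0 and 76.4 in skin and 24.9 and 19.0 in intestine, with no overlap. Its log2 difference was -1.80 ± 0.15 between intestine and spleen, a 3.49-fold lower level, and -1.25 ± 0.15 between intestine and skin (limma adjusted p = 1.01e-05 and 0.00013). Its second probe showed smaller differences of -0.73 and -0.52. In skin Rab22a was lower than in spleen (-0.56 ± 0.15, adjusted p = 0.0253), a call that was lost without any 1 of the 4 arrays.

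The Rab5 proteins control fusion and maturation of early endosomes. Rab5b read 64.97 and 49.12 in the spleen, 3.401 and 15.87 in the intestine and 16.1 and 14.8 in the skin, and was detected on 1 of the 2 intestine arrays. Both other tissues lay below spleen, with differences of -1.25 ± 0.22 in intestine and -1.01 ± 0.22 in skin (limma adjusted p = 0.0012 and 0.0127). Its other 3 detected probes gave smaller values, from -0.67 to -0.23 in intestine and from -0.43 to -0.10 in skin. With only probes detected on all 6 arrays, a dimmer probe stood for the gene and both calls were lost. Rab5c, with 791 and 889 in the spleen, 577 and 545 in the intestine and 688 and 715 in the skin, was slightly lower in intestine than in spleen (-0.41 ± 0.13, adjusted p = 0.029), a call that held in 9 of 15 settings.

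Of the 11 Rabs of the endoplasmic reticulum and Golgi, 8 were tested. In intestine against spleen 4 were lower, in skin against spleen 5 were lower and 1 higher, and in intestine against skin 1 was lower and 1 higher. These calls made up 50%, 75% and 25% of the 8, where 49.3%, 24.5% and 39.3% of all genes were called. Rab2a, which acts between the endoplasmic reticulum and the Golgi, showed the widest difference of all 37 genes. It read 809 and 769 in spleen, 439 and 390 in skin and 88.0 and 181.6 in intestine. The 3 tissues did not overlap, although the intestine arrays differed from each other by more than those of the other tissues. Rab2a was 4.60-fold lower in intestine than in spleen (-2.20 ± 0.25, limma adjusted p = 7.25e-05) and 2.72-fold lower than in skin (-1.44 ± 0.25, adjusted p = 0.0012), and in skin it was lower than in spleen (-0.76 ± 0.25, adjusted p = 0.0493). The skin call held in 7 of 15 settings.

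The Golgi Rabs Rab6a and Rab6b are set side by side, and the difference between them was not tested. Rab6b read 73.4 and 70.4 in the spleen, 20.6 and 12.2 in the intestine and 39.1 and 24.2 in the skin, and was lower in intestine than in spleen (-1.13 ± 0.20, limma adjusted p = 0.0014). Its skin difference of -0.63 ± 0.20 (adjusted p = 0.0491) held in 6 of 15 settings, and its difference between intestine and skin (-0.50 ± 0.20, adjusted p = 0.0791) was called with the replicate number as a block (adjusted p = 0.0258). Rab6a was lower in skin than in spleen (-0.70 ± 0.15, adjusted p = 0.0127) and than in intestine, from which it differed by 0.86 ± 0.15 (intestine minus skin, adjusted p = 0.00161). Its other detected probes gave -0.63 and 0.06 for skin against spleen and -0.12 and 0.27 for intestine against skin, and the mean over its probes was called in neither.

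Rab18, of the endoplasmic reticulum and lipid droplets, and Rab33b, a Golgi Rab that binds the autophagy machinery, were both lower than in spleen in intestine (-0.80 ± 0.13 and -0.78 ± 0.13, limma adjusted p = 0.000759 and 0.001) and in skin (-0.51 ± 0.13 and -0.52 ± 0.13, adjusted p = 0.0229 and 0.0225). The other detected probe of Rab33b gave a smaller difference from spleen in intestine, -0.33, and -0.59 in skin. The intestine calls held in all 15 settings and the skin calls in 9. Rab19 was higher in skin than in spleen (0.52 ± 0.15, adjusted p = 0.0339, 8 of 15 settings). Rab1, which works at the exit from the endoplasmic reticulum, gave 0.32 ± 0.13 in intestine and 0.16 ± 0.13 in skin against spleen and was not called.

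Of the 7 Rabs of late endosomes, lysosomes and related organelles, 6 were tested. Intestine had 2 lower than spleen and the same number lower than skin, and skin had 1 lower than spleen. In that order the called shares were 33.3%, 33.3% and 16.7%, against 49.3%, 39.3% and 24.5% of all genes. Rab29, listed in the files as Rab7l1, acts at the Golgi and lysosome, and Rab32 directs cargo to lysosome-related organelles. Rab29 read 237.9 and 224.0 in spleen, 130.0 and 133.8 in skin and 35.3 and 48.7 in intestine, without overlap. It was 3.21-fold lower in intestine than in spleen (-1.68 ± 0.15, limma adjusted p = 1.5e-05) and 2.28-fold lower than in skin (-1.19 ± 0.15, adjusted p = 0.000176). In skin it was lower than in spleen (-0.50 ± 0.15, adjusted p = 0.0371, 9 of 15 settings).

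Rab32 read 79.0 and 68.5 in spleen, 58.6 and 55.0 in skin and 11.8 and 16.04 in intestine. It was lower in intestine, with differences of -1.24 ± 0.14 against spleen and -1.21 ± 0.14 against skin (limma adjusted p = 6.57e-05 and 9.59e-05). Skin and spleen differed by -0.03 ± 0.14 after normalization. Its relative Rab38, near the detection limit, was not called in any comparison. Rab7, which drives fusion with lysosomes, was not called by its brightest probe (-0.03 ± 0.14 for intestine against spleen), but its 2 other detected probes gave 0.97 and 1.09, and the mean over the 3 probes was 0.68 (adjusted p = 0.00305). Its direction in intestine therefore depended on the probe read. Rab24, linked to autophagy, and Rab9, which returns cargo from late endosomes to the Golgi, were not called, with differences of -0.01 ± 0.14 and -0.27 ± 0.16 for intestine against spleen.

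Among the 7 Rabs of regulated secretion only Rab3d and Rab37 were tested. Rab3d, a Rab of secretory granules, read 253.5 and 218.6 in the spleen, 52.2 and 76.5 in the intestine and 299.2 and 277.7 in the skin. Both intestine arrays lay below all others and both skin arrays above. It was 2.38-fold lower in intestine than in spleen (-1.25 ± 0.17, limma adjusted p = 0.000242) and 3.42-fold lower than in skin (-1.77 ± 0.17, adjusted p = 3.39e-05). In skin it was higher than in spleen by 0.52 ± 0.17 (adjusted p = 0.0499), a call that held in 7 of 15 settings. Rab37, also of secretory granules, lay within 0.06 of zero in each comparison and was not called.

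Of the 7 symbols counted under other or less settled roles, among them the exchange factor Rab3il1, 5 were tested. Rab40c, which recruits a ubiquitin ligase through its SOCS box, was lower in intestine than in spleen (-0.95 ± 0.17, limma adjusted p = 0.0012) and than in skin (-0.90 ± 0.17, adjusted p = 0.00196). Rab28 was lower in intestine than in skin (-0.45 ± 0.14, adjusted p = 0.0232, 8 of 15 settings). Its difference from spleen, -0.35 ± 0.14 (adjusted p = 0.057), passed the threshold with the replicate number as a block (adjusted p = 0.0471). Rab23, Rab39 and Rab39b were read near the detection limit, with signals of at most 19.4, and were not called.

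**Figure D4:**
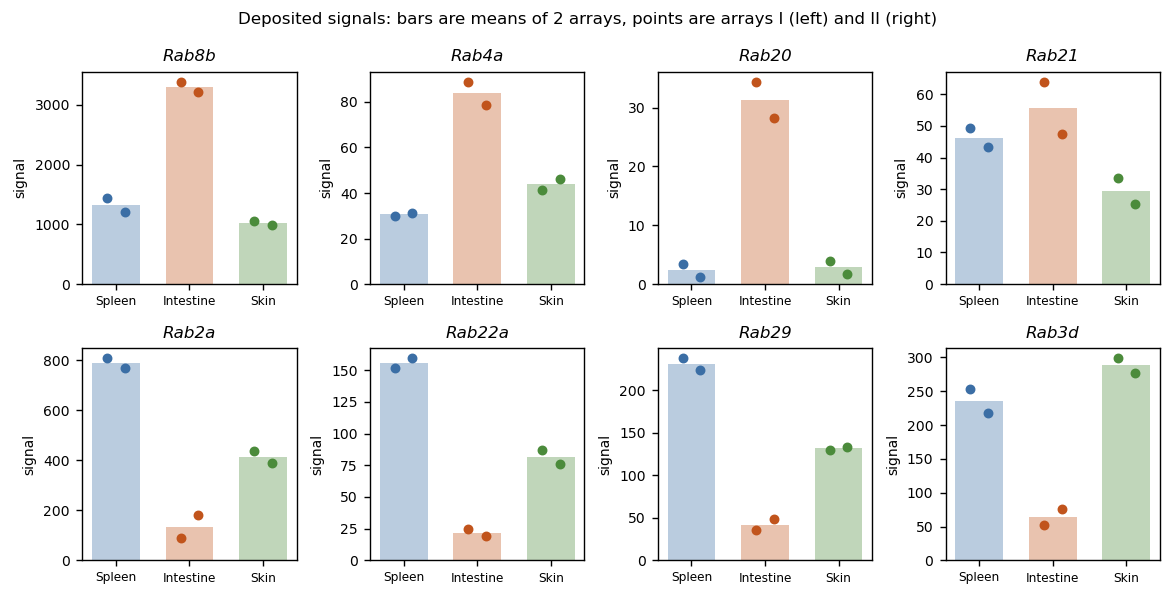
Deposited signals of 8 Rab genes on each array (y axis, arbitrary units from 0), with bars for the mean of the 2 arrays of a tissue and points for arrays I (left) and II (right). Rab8b, Rab4a and Rab20 are highest in intestine, Rab2a, Rab22a, Rab29 and Rab3d are lowest there, and the Rab21 points of intestine and spleen overlap.

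Several of these genes belong to pairs of close paralogs, whose values are set side by side. For intestine minus spleen, Rab8b gave 1.35 and Rab8a 0.09, Rab4a gave 1.47 and Rab4b 0.44, and Rab11a gave -0.81 and Rab11b -0.29. In the same comparison Rab6b gave -1.13 and Rab6a 0.16, Rab33b gave -0.78 and Rab33a 0.27, and Rab5b gave -1.25 and Rab5c -0.41. The difference between the members of a pair was not tested. Probe sequences were not used here, so cross-binding between close paralogs was not checked.

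Where a gene was read by several detected probes, agreement varied. All 3 probes of Rab8b, both of Rab11a, both of Rab22a, both of Rab33b and all 4 of Rab5b had 1 sign in intestine against spleen. Probes of Rab10, Rab21, Rab6a, Rab24, Rab8a and Rab7 did not.

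**Figure D5:**
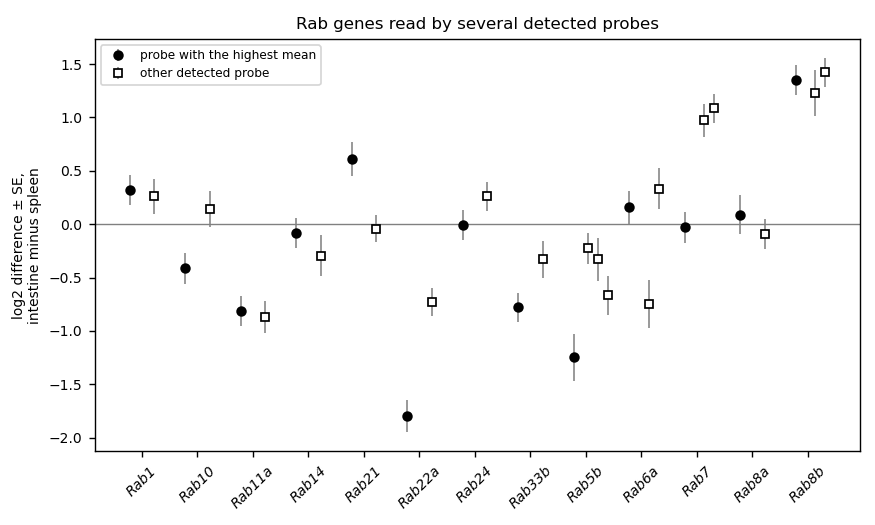
Log2 differences with standard errors between intestine and spleen (y axis) for the 13 Rab genes with more than 1 detected probe, with a filled circle for the probe that stands for the gene and open squares for the others. The probes of Rab8b lie together between 1.23 and 1.42, and the open squares of Rab7 at 0.97 and 1.09 lie apart from its filled circle at -0.03.

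The partners of the Rabs were described from 4 lists of 137 genes on the array, of which 107 were tested. In intestine against spleen 20 were higher and 34 lower, in skin against spleen 9 higher and 7 lower, and in intestine against skin 14 higher and 26 lower. The called share was 50.5% of partners against 49.3% of all genes in the first comparison, 15.0% against 24.5% in the second and 37.4% against 39.3% in the last. These shares were near those of all genes where intestine was compared and below in skin against spleen. The deposited scaling alone gave 13 higher and 57 lower for intestine against spleen, 4 and 25 for skin against spleen and 12 and 38 for intestine against skin, and median scaling gave 16 and 5 for skin against spleen. Without spleen array II limma called 35 partners in intestine against spleen in place of 54. In skin against spleen it called 16, but 2, 1, 3 and 6 without spleen I, spleen II, skin I and skin II, and 29 without either intestine array.

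Among 6 tested genes of prenylation and GDP dissociation, 2 were higher and 1 lower in intestine than in spleen, or 50% against 49.3% of all genes. Rabggtb, the catalytic subunit of Rab geranylgeranyl transferase, read 307 and 294 in the spleen, 658 and 644 in the intestine and 288 and 297 in the skin. Both intestine arrays lay above the others, by 1.33 ± 0.13 against spleen and 1.13 ± 0.13 against skin (limma adjusted p = 2.62e-05 and 9.29e-05). Rabif, which holds Rabs free of nucleotide, was lower in intestine than in spleen (-0.72 ± 0.14, adjusted p = 0.00244) and than in skin (-0.45 ± 0.14, adjusted p = 0.0309). The other probe of Rabif gave smaller differences of -0.23 and -0.21. Gdi2, a dissociation inhibitor, was higher in intestine than in spleen by its brightest probe (0.55 ± 0.16, adjusted p = 0.0161), though its other probes gave values near zero. In skin against spleen limma called none of the 6, and none had an unadjusted p under 0.05. Over all genes tested 24.5% were called there.

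Of 32 tested exchange factors 7 were higher and 12 lower in intestine than in spleen, or 59.4% against 49.3% of all genes. Dennd1a is counted among these 12 and among the 5 lower in skin than in spleen. It passed the filter only through spleen, so its calls are given no weight. Denn2b, a DENN-domain exchange factor, read 315 and 292 in spleen and 76.8 and 50.4 in skin, and was not detected on the intestine arrays, which read 3.72 and 3.02. By lower bounds, which were not tested, Denn2b in intestine was at least 11.8-fold below spleen and at least 3.43-fold below skin. The fitted differences were -3.84 ± 0.17 and -2.05 ± 0.17 (limma adjusted p = 3.15e-07 and 1.53e-05). In skin Denn2b was lower than in spleen (-1.79 ± 0.17, adjusted p = 0.000426). Ric1, which forms the exchange factor of Rab6 with Rgp1, moved the other way. It read 45.3 and 47.3 in the spleen, 251.4 and 202.0 in the intestine and 36.96 and 48.4 in the skin, a difference of 2.34 ± 0.15 from spleen and 2.17 ± 0.15 from skin (adjusted p = 2.25e-06 and 4.31e-06). Rgp1 itself was lower in intestine, by -0.55 ± 0.15 against spleen and -0.53 ± 0.15 against skin (adjusted p = 0.0121 and 0.0179). Mon1b, of the exchange factor for Rab7, was lower in intestine, with differences of -1.83 ± 0.15 against spleen and -1.46 ± 0.15 against skin (adjusted p = 1.16e-05 and 6.18e-05). In skin against spleen 2 exchange factors were higher and 5 lower, among them Trappc2 (-0.87 ± 0.21, adjusted p = 0.0186) and Trappc6b (-0.63 ± 0.13, adjusted p = 0.0117), subunits of the TRAPP complexes that act on Rab1. The other probes of Trappc6b gave -0.51 and 0.01. In intestine against skin 6 were higher and 8 lower. Exchange factors were called at 21.9% in skin against spleen and 43.8% in intestine against skin, against 24.5% and 39.3% of all genes.

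Of 27 tested GTPase-activating proteins 6 were higher and 8 lower in intestine than in spleen, 3 were higher in skin than in spleen, and 3 were higher and 9 lower in intestine than in skin. Their called shares were 51.9%, 11.1% and 44.4%, against 49.3%, 24.5% and 39.3% of all genes. Tbc1d10c, of a family that acts on Rab35, was lower in intestine than in spleen by its brightest probe (-1.41 ± 0.15, limma adjusted p = 4.21e-05), while its other probe gave 0.02. Rabgap1 was also lower there (-1.08 ± 0.18, adjusted p = 0.000798). Tbc1d7, which carries a TBC domain but is known as a subunit of the tuberous sclerosis complex, was lower in intestine, with differences of -1.01 ± 0.13 against spleen and -1.50 ± 0.13 against skin (adjusted p = 0.000156 and 1.54e-05). In skin it was higher than in spleen by 0.49 ± 0.13 (adjusted p = 0.0234), as were Tbc1d2b by 0.83 ± 0.14 (adjusted p = 0.00523) and Tbc1d10a by 0.54 ± 0.15 (adjusted p = 0.0297). Between intestine and skin Tbc1d2b differed by -1.12 ± 0.14 and Tbc1d1, which regulates traffic of glucose transporters, by 1.29 ± 0.17 (adjusted p = 0.000213 and 0.000281), with 0.78 and -0.16 by the other probes of Tbc1d1.

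Of 42 tested effectors and tethers 5 were higher and 13 lower in intestine than in spleen, 4 were higher and 2 lower in skin than in spleen, and 4 were higher and 8 lower in intestine than in skin. These were 42.9%, 14.3% and 28.6% of the list, against 49.3%, 24.5% and 39.3% of all genes. Sytl3, a synaptotagmin-like protein that links Rab27-bearing lytic granules to transport, read 690 and 621 in the spleen, 1799 and 1631 in the intestine and 486 and 443 in the skin. Intestine exceeded spleen 2.77-fold and skin 3.48-fold (limma adjusted p = 1.97e-05 and 6.69e-06). Appl1, an adaptor on early endosomes that binds Rab5, was higher in intestine than in spleen by 1.51 ± 0.15 and in skin than in spleen by 0.60 ± 0.15 (adjusted p = 3.72e-05 and 0.0215), with 0.38 and 0.25 for intestine and -0.15 and 0.35 for skin by its other probes. Its relative Appl2 was higher in intestine than in skin (1.03 ± 0.18, adjusted p = 0.00126). Micall1, a scaffold of recycling tubules that binds Rab8 and Rab35, was lower in intestine than in spleen (-1.27 ± 0.15, adjusted p = 9.37e-05). Sytl1, another synaptotagmin-like protein, was higher in skin than in spleen (0.70 ± 0.15, adjusted p = 0.0132) and lower in intestine than in skin (-1.01 ± 0.15, adjusted p = 0.000588). Rab11fip1, an effector of Rab11, is counted among the 4 higher in skin, where it read 12.3 and 7.75. It was detected on both arrays only there and passed the filter through skin alone, so its call is given no weight. The same holds for Inpp5b, Plin3, Rabepk and Vps39, counted among the 13 lower in intestine, which passed the filter through spleen alone.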

How the data were processed

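Total RNA of the sorted cells was amplified with a biotin label and read on Illumina mouse BeadChips. Per the submitters' processing notes the authors used BeadStudio 1.5.1.3. The deposited tables give, per probe, an average signal intensity and a detection p-value. About 31% to 33% of the deposited intensities were below 0 and all 6 arrays had the same mean of 83.1, so the authors' values were background-subtracted and scaled, although no source used here states the method. A series-wide table of the same intensities, unscaled, was used as an alternative.

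From these intensities log2(signal + 16) was computed and quantile normalized over all 46643 probes. A probe was kept if its detection p was under 0.01 on both arrays in 1 or more tissues (18583 probes). The kept probe with the highest mean stood for a gene, which gave 13455 genes, and Rab genes were read only from probes that the symbol rule took. The fit used limma 3.58.1 in R 4.3.3, with all 6 arrays, a mean per tissue, 3 residual degrees of freedom and Benjamini-Hochberg adjustment (threshold 0.05), and was tested on simulated data. A fold against a tissue without detection is given as "at least", taken from whichever was higher on each of its arrays, the dimmest detected probe or its own signal. The 2 arrays per tissue limit the precision. Symbols were updated through RefSeq (GRCm38.p6): Rab2 to Rab2a, Rab6 to Rab6a and Rab7l1 to Rab29.

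Replicate numbers I and II were shared by the tissues and, per the file headers, each number was 1 slide. Deviations of same-numbered arrays correlated between tissues at 0.16 for spleen and intestine, 0.21 for spleen and skin and 0.11 for intestine and skin over the genes tested, so the number was treated as a pairing by slide in an alternative fit with a block.

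Values on every array are given for Rab genes called with a log2 difference of at least 1 and for the 5 with the highest mean signal. Other called genes are given by their differences, and partners by the 3 largest called differences per list and comparison. Rgp1 was added as the partner of Ric1. The members, lists and rules were chosen with earlier results of these data known. Marker lists of T cells, B and plasma cells, neutrophils, mast cells and basophils, keratinocytes, gut epithelium, melanocytes, stroma and endothelium were also read, and those not counted in the report are counted in the closing section.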

Additional observations from a re-analysis of the deposited data

How the results depend on the processing

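Each count was recomputed with offsets of 4 and 64, median scaling, the deposited scaling alone, the unscaled table, no filter on dim probes, only probes detected on all 6 arrays, the mean of a gene's probes, the replicate block and without each array. Counts of called Rab genes stayed within 1.5 times the main count in intestine against spleen (14 to 23) and intestine against skin (12 to 18). In skin against spleen the 13 Rab calls became 2 with an offset of 4 and 3 without the filter, and ranged from 0 to 16 when 1 array was left out (10 to 21 at an unadjusted p under 0.05 by limma). Partner calls there, 16 in the main fit, became 8 with an offset of 4, 29 with the deposited scaling alone and 6 without the filter, and ranged from 1 to 29 without 1 array. Partner calls in intestine against spleen ranged from 35 to 57 without 1 array. With the replicate block limma called 20, 13 and 15 Rab genes and 60, 21 and 42 partners in intestine against spleen, skin against spleen and intestine against skin, and the block changed no Rab call other than those of Rab28 and Rab6b given above. Of single genes only Rab7 reversed, from -0.03 (not called) by its brightest probe to 0.68 with the mean of its probes. Its other probes gave 0.97 and 1.09, and why its probes differ was not tested. The median difference of all genes in intestine against spleen was -0.04 with quantile normalization, 0.11 with median scaling and -0.25 with the deposited scaling, and the share of all calls that were higher was 42.5%, 58.5% and 25.7%. In skin against spleen the medians were 0.00, 0.11 and -0.12, with shares of 53.4%, 71.2% and 36.1%. In intestine against skin they were -0.08, -0.05 and -0.18, with shares of 41.8%, 43.7% and 30.4%. Fits without an array leave that tissue with 1, which is assumed to vary like the others. Signals close to background, as for Rab17, Rab20, Rab33a, Rab38, Rab39 and Rab39b, limit what a difference can show.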

Other observations

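The files listed 6 Rab genes of the reference only under other symbols and so outside the rule, and 4 of them were detected and tested. Rab31, an early endosomal Rab related to Rab22a, read 92.3 and 98.2 in the spleen, 17.7 and 23.9 in the intestine and 98.8 and 126.7 in the skin. It was lower in intestine than in spleen (-1.21 ± 0.15, limma adjusted p = 0.000149) and than in skin (-1.68 ± 0.15, adjusted p = 2.35e-05). Rab1b, which acts with Rab1 at the exit from the endoplasmic reticulum, read 306 and 238 in the spleen, 116.3 and 106.4 in the intestine and 173 and 198 in the skin, and was lower in intestine than in spleen (-0.77 ± 0.16, adjusted p = 0.00263) and than in skin (-0.49 ± 0.16, adjusted p = 0.0309). Rab7b, of late endosomes, was higher in intestine than in spleen (0.55 ± 0.15, adjusted p = 0.0118) but was detected on 1 of the 2 spleen arrays. Rab43 was called in no comparison.

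The other marker lists were read in the same way. Of 6 B and plasma cell markers 2, 1 and 1 were detected on both arrays of spleen, intestine and skin, and of 13 gut epithelial markers 2, 4 and 3. Keratinocyte markers gave 3, 2 and 2 of 11, melanocyte markers 1 of 7 in each tissue, stromal markers 2, 1 and 2 of 10, and endothelial markers 2 of 8 in each. Of 9 mast cell and basophil markers 1 was detected on both skin arrays. Of 7 neutrophil markers 1 was detected on both spleen arrays, and S100a8 read 81.1 on spleen array II against 2.92 on spleen array I. The part of these levels in the Rab results was not tested.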
